A study of Homo sapiens with 372 samples.

Results

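A2780 is a human cell line derived from an ovarian carcinoma. Single cells of this line were compared within 1 treatment, the combination of paclitaxel at 5 nM and celecoxib at 75 µM for 16 h. The 59 combination cells, of 338 cells in the series, were ordered by their total, the sum of the normalized TPM (a transcript abundance corrected for gene length, scaled by the authors to spike-in RNA added to each cell) over all 9664 genes listed. The 29 cells above the median are called high cells and the 30 at or below it low cells. The groups were thus chosen on measured values, and their totals are given as a description. The question was which genes took a larger or smaller share of the RNA in cells of high total. The other groups were untreated cells (46), paclitaxel at 16 h (56) and at 48 h (53), and celecoxib at 2 h (63) and at 16 h (61), all cells of the same line. The labels do not state how many microfluidic capture chips were run. Each condition counts as 1 sample, so cells are not replicates. No p-value was computed from them, and every spread given is the spread over cells.

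Cells of high total at the same spike-in amount hold more RNA per cell by this measure, and cell size, growth and the position in the cell cycle are known to move with RNA content. A cell duplicates its DNA in S phase with the MCM helicase, the sliding clamp PCNA and enzymes that make nucleotides, and divides after G2 with cyclin B, CDK1 and spindle proteins. Paclitaxel stabilises microtubules and holds cells in mitosis. Celecoxib, an inhibitor of cyclooxygenase 2, is also known to induce the integrated stress response, a programme in which the factor ATF4 raises amino acid synthesis and transport genes.

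The high cells carried more transcripts of S phase and G2/M genes per unit of RNA. At the same total per cell, 40 of the 44 S phase genes and 37 of the 53 G2/M genes compared were more than 1.5-fold higher in the high cells and 0 were more than 1.5-fold lower, where 19.8% of all genes compared were higher and 1.96% lower by that limit. The subunits of oxidative phosphorylation (OXPHOS) and the ribosomal proteins kept nearly the same share of the total in both groups. Both lists are of high level, and of all genes at that level 4.04% were higher. Against untreated cells at the same total, S phase genes had a median difference of -0.16 in the high and -1.23 in the low cells (log2 E-value scale, explained with the totals). Genes of the integrated stress response had medians of 1.03 and 0.56, and all genes compared had medians of 0.11 and -0.06. Between high and low cells the stress response genes differed by a median of 0.53, against 0.36 for all genes at their level.

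Promoters of cell cycle genes are shown here because each cell cycle list held letters of its own near the start sites at a larger share than all genes compared. Letters of 3 kinds were searched on both strands of windows from 250 bases before to 50 after the RefSeq start site (GRCh38.p14), namely TTTCCCGC or TTTGGCGC, which are forms bound by E2F factors, CCAAT, bound by NF-Y, and TTTGAA, the CHR element of G2/M promoters. Of the 9149 genes compared, 5153 had a single window under their symbol. The E2F letters occurred in 4.35% of these windows, in 11 of 24 windows of S phase genes (45.8%) and in 2 of 35 of G2/M genes (5.71%). The CHR letters occurred in 9.33% of all windows, in 27 of 35 of G2/M genes (77.1%) and in 2 of 24 of S phase genes (8.33%). CCAAT was held by 39.1% of all windows, by 66.7% of S phase and by 71.4% of G2/M windows. Over the 1027 genes past 1.5-fold upward that had a single window the shares were 6.52% for E2F, 40.7% for CCAAT and 13.3% for CHR letters. Both CCAAT and CHR stood in 1 window in 62.9% of G2/M genes and in 4.42% of all genes. In the 80 OXPHOS subunits, 46 had a single window, and 8.7% of those held the E2F and 2.17% the CHR letters. None of these 3 sets of letters contains another. A match is a description of letters and not of a bound site. The 180 bases before the start site are printed for 6 genes of the cell cycle, with matches in capitals. These genes were chosen by name, and MCM3 and CCNB1 are on neither list. MCM3 (chr6:52284743-52284922, minus strand) and MCM6 (chr2:135876444-135876623, minus strand) encode helicase subunits, NUSAP1 (chr15:41332701-41332880, plus strand) a spindle protein, CCNB1 (chr5:69166970-69167149, plus strand) and CCNB2 (chr15:59104966-59105145, plus strand) B-type cyclins, and TOP2A (chr17:40417897-40418076, minus strand) the topoisomerase that untangles chromosomes.
MCM3: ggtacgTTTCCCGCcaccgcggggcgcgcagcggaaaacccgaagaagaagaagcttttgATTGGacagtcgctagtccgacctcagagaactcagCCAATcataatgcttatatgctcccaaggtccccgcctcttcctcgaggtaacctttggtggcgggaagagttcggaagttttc
MCM6: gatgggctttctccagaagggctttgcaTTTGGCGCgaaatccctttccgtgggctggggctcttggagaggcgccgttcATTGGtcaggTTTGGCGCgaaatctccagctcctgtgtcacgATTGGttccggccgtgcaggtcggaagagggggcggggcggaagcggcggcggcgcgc
NUSAP1: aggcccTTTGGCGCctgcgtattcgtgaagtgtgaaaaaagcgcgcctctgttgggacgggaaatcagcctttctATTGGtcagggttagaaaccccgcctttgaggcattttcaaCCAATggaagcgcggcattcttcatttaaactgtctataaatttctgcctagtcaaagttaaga
CCNB1: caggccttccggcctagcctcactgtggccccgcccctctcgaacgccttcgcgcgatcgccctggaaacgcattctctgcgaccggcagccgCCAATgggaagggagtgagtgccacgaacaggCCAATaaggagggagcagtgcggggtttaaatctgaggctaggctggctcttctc
CCNB2: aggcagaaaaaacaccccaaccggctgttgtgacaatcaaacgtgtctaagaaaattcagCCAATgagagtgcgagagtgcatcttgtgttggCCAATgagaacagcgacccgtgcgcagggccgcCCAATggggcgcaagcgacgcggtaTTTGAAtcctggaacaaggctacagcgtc
TOP2A: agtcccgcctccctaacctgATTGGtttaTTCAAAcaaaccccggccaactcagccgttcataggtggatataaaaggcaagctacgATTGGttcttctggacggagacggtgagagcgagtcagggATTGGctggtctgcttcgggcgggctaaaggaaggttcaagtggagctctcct
In these stretches MCM3 held TTTCCCGC 174 bases before its start, MCM6 held TTTGGCGC at 152 and again at 90 bases, and NUSAP1 held TTTGGCGC at 174 bases. CCAAT or its reverse ATTGG recurred in each of the 6, at 87 and 55 bases before the start in CCNB1 and at 120, 87 and 54 bases in CCNB2. The CHR letters stood at 29 bases before the start in CCNB2 and, on the other strand, at 151 in TOP2A.

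Totals are given as multiples of the median total of untreated cells. Those of the 30 low cells ran from 0.57 to 1.40, with a median of 1.15. Those of the 29 high cells ran from 1.46 to 7.21, with a median of 2.06, which was 1.80 times that of the low cells. Of the low cells 3 and of the high cells 0 lay below the median of untreated cells. The split fell between cells 302 (1.40) and 264 (1.46). Cell 306 stood apart at the top with 7.21, 2.47 times the next total of 2.92. Cell 308 stood apart at the bottom with 0.57, below the next total of 0.95, and was the only combination cell that the authors' annotation calls Suppressive, the other 58 being called Activation. Of the combination cells 34 carried library indices of the first block of 96 and 25 of the third. The first block gave 19 high and 15 low cells and the third 10 high and 15 low cells, so both blocks fed both groups.

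**Figure D1:**
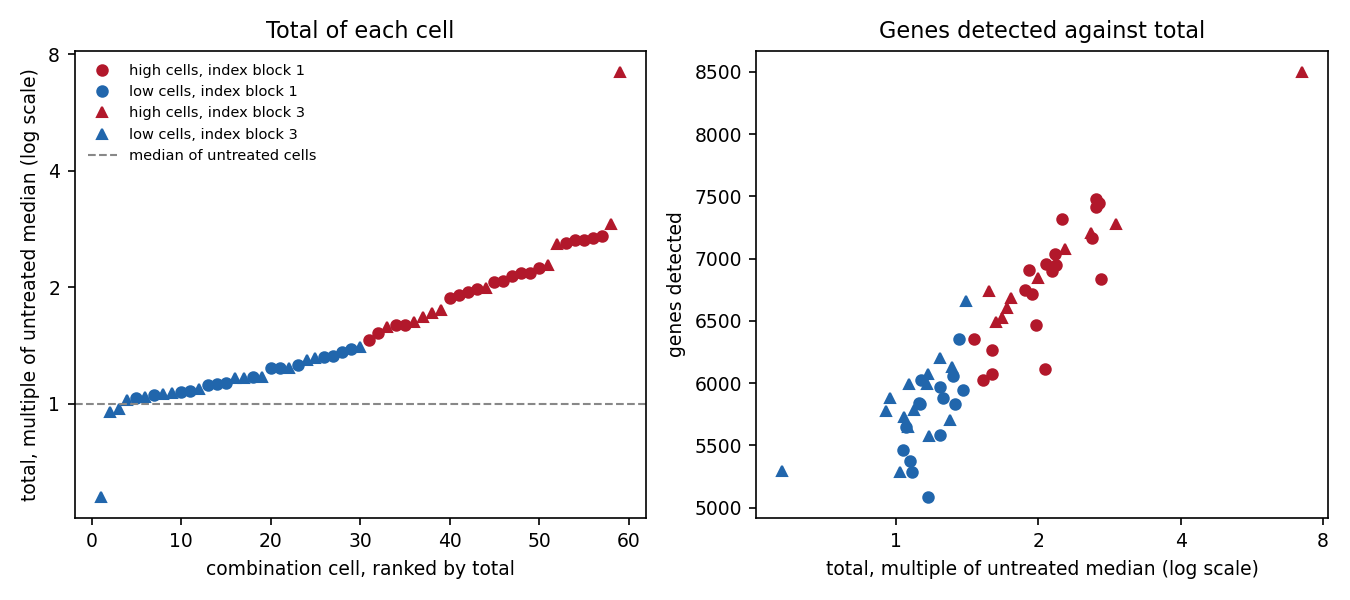
Left, the total of each of the 59 combination cells as a multiple of the untreated median (log scale) by rank, with that median dashed; right, genes detected against the total. Colours mark high and low cells and symbols the blocks of library indices; cell 306 lies alone at 7.21 and 8499 genes, and genes detected climb with the total.

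The number of genes with a value above 0 moved with the total. It ran from 6023 to 8499 in high cells (median 6843) and from 5089 to 6663 in low cells (median 5833), a difference of medians of 1010 genes. Over the 59 cells the correlation of genes detected with the log2 total was 0.92 (Pearson) and 0.91 (Spearman), where each point is a cell whose total and gene count come from the same library. This difference stands beside every result that follows, since a gene at 0 in more low cells lowers their mean. Read numbers are not known for these cells, so for genes detected more RNA and deeper sampling of a cell cannot be told apart. The total itself is a ratio to the most abundant spike-in RNA of the same cell. Variation between cells in the amount or capture of that spike-in was not tested. Of the 9149 genes compared, 1814 were more than 1.5-fold higher in the high cells by mean E-value and 179 lower. The E-value is log2(N/10 + 1), where N is the normalized TPM, here after rescaling each cell to the median total of the combination cells. By the ratio of linear means the same limit gave 1412 higher (15.4%) and 1213 lower (13.3%) genes, so the share of higher genes among those past the limit was 91.0% on the E-value scale and 53.8% on the linear scale. The median over all genes compared was 0.20 by E-values and -0.00 by linear means. The excess of higher genes by E-value was widest at middle levels. Among the 915 genes with a mean E-value from 2.36 to 3.01, 34.6% were higher, and these genes were detected in a median of 89.7% of high and 73.3% of low cells. Among the 915 genes of highest mean E-value (5.23 to 11.3) 4.04% were higher. Both scales agreed for 826 of the genes higher and 159 of the genes lower. In the 9 high and 7 low cells whose genes detected lay in the range that both groups share (6023 to 6663), a set chosen after the data were seen, 1753 genes were higher and 1693 lower.

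S phase genes had the largest median difference of the lists compared, apart from a group of 6 helicase subunits (1.69) that was taken after its values were seen. Their median was 1.19 on the log2 E-value scale, against 0.20 over all genes, and 1.05 by linear means, against -0.00. Of the 44 genes, 36 were more than 1.5-fold higher by linear means as well, and 29 were past the limit in each index block split at its own median. The block medians were 0.88 in the first and 1.13 in the third block. In the 9 high and 7 low cells of the shared detection range the median was 1.12. In these same cells the genes past the limit were nearly even in both directions. Among the 26 members of middle level (mean E-value 1 to 3), all 26 were past the limit, where 27.8% of the 3903 genes at that level were.

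The level of the list in single cells shows where the groups overlap. The mean rescaled E-value over the 44 genes ran from 1.5 to 4.39 in high cells (median 3.17), from 0.85 to 3.54 in low cells (median 1.55) and from 1.5 to 4.00 in untreated cells (median 3.37). Of the 29 high cells 17 were above 3 and 8 below 2, of the 30 low cells 1 was above 3 and 21 below 2, and of the 46 untreated cells 33 were above 3 and 4 below 2. High cells therefore held both levels, and low cells mostly the lower one. As a share of the total, S phase transcripts made up a median of 0.345% in high, 0.178% in low and 0.431% in untreated cells. In deposited units, without rescaling, their sum had a median of 10150 normalized TPM in high, 3018 in low and 6252 in untreated cells. Over the 59 cells the level correlated with the log2 total at 0.63 (Pearson) and 0.66 (Spearman), at 0.56 within the first and 0.70 within the third block, and at 0.65 without cells 306 and 308. It also correlated with genes detected at 0.60, and the part of detection in the relation to the total was not tested. In the shared detection range the medians were 2.37 in the 9 high and 1.59 in the 7 low cells.

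**Figure D2:**
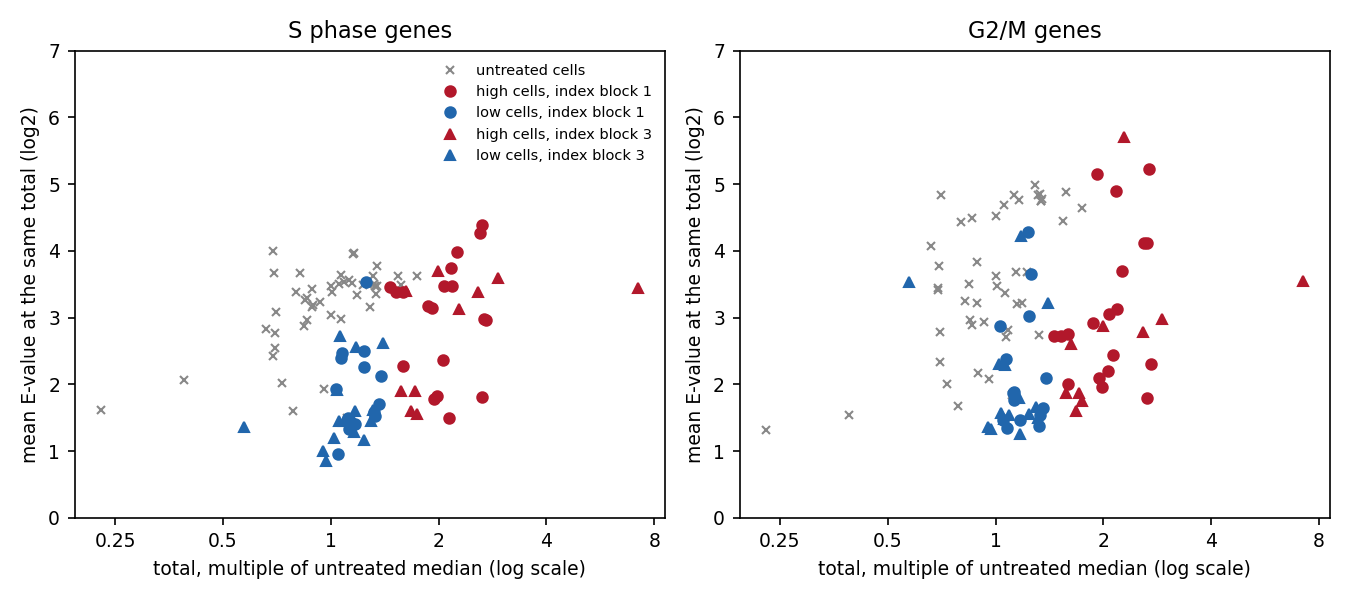
Mean E-value after rescaling to the same total (log2) over the S phase genes, left, and the G2/M genes, right, against the total as a multiple of the untreated median (log scale), 1 symbol per cell. Low cells cluster below 2 for S phase genes with 21 of 30, high cells spread from 1.5 to 4.39, and untreated cells lie mostly above 3.

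PCNA had the largest difference of the S phase list. This gene (chr20:5114953-5126626, GENCODE 44 on hg38, as for all genes placed here), which encodes the clamp that tethers DNA polymerase, had rescaled E-values from 0.00 to 7.34 with a median of 5.78 in high cells and from 0.00 to 7.14 with a median of 4.07 in low cells, and was detected in 27 of 29 and 21 of 30 cells. The difference of means was 2.22 with an SD over cells of 2.13, and the linear means differed by 1.44 (log2). The groups overlapped over most of the range, and 9 low and 2 high cells were at 0. MCM7 (chr7:100092233-100101940) ran from 0.00 to 5.95 (median 4.61) in high and from 0.00 to 5.66 (median 1.44) in low cells, a difference of 1.98 with an SD of 1.94. MCM3, which is not on the list, had medians of 3.63 and 0.05 and a difference of 1.87. Together with MCM2 (1.52), MCM4 (1.90), MCM5 (1.19) and MCM6 (1.19), all 6 subunits of the MCM2 to MCM7 helicase were past the limit on both scales. MCM2, detected in 23.3% of low cells, was compared only because more than 30% of high cells held it. Each subunit was lower than in untreated cells in the low cells, with a median of -1.70, while the high cells had a median of -0.06.

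Further members act around the fork. FEN1, which trims the flaps of lagging-strand fragments, was detected in 23 high and 7 low cells and differed by 2.06. CDC45, which joins the MCM helicase to form its active state, was detected in 17 high and 3 low cells and differed by 1.78, and CDC6, which loads the helicase, in 18 high and 5 low cells with a difference of 1.19. RRM1 and RRM2, the subunits of ribonucleotide reductase, differed by 1.55 and 1.22. RRM1 was detected in all 29 high cells and in 25 low cells. The 4 members within the limit were BRIP1 at 0.49, MRPL36 at 0.38, POLA1 at 0.22 and NASP, a histone chaperone, at 0.20. FEN1, CDC45, CDC6, RRM1 and RRM2 were named after their values were seen.

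G2/M genes were the second list. Their median difference was 0.88 by E-values and 0.59 by linear means, with 27 of 53 past the limit on the linear scale, and the block medians were 0.99 and 0.73. In the shared detection range the median was 0.47. The list's level per cell ran from 1.60 to 5.71 in high cells (median 2.75), from 1.25 to 4.28 in low cells (median 1.71) and from 1.32 to 4.99 in untreated cells (median 3.49). Levels above 4 were found in 6 high, 2 low and 17 untreated cells, and levels below 2 in 6 high, 19 low and 4 untreated cells. The correlation with the log2 total was 0.43 over the 59 cells, at 0.48 within the first and 0.38 within the third block, and 0.52 without cells 306 and 308. The S phase and G2/M levels of a cell correlated at 0.70, where both share its library.

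UBE2C had the largest difference of the G2/M list. It encodes the ubiquitin-conjugating enzyme of the anaphase-promoting complex, and had a median of 5.07 in high cells and 0.00 in low cells, was detected in 27 of 29 and 11 of 30, and differed by 3.21 (SD 2.65). CDK1, the mitotic kinase, was detected in 22 high and 11 low cells and differed by 2.60. Both were named after their values were seen. NUSAP1 (chr15:41320794-41381050) ran from 0.00 to 7.12 (median 4.41) in high and from 0.00 to 6.17 (median 1.10) in low cells, a difference of 2.23 with an SD of 2.05, and differed by 2.03 and 2.35 within the blocks. CCNB1 (chr5:69167135-69178245), which is not on the list, was detected in all 29 high cells, from 2.39 to 9.02 with a median of 5.02, and in 17 of 30 low cells, from 0.00 to 8.64 with a median of 2.67. Its mean E-values differed by 2.19, while its linear means differed by 0.37, and 4 low and 3 high cells lay above 7. TOP2A differed by 1.41, AURKA, a spindle kinase, by 1.62, and MKI67, a marker of cycling cells, by 0.67. The 16 members not past the limit ran from CTCF at -0.40 up to G2E3 and GTSE1 at 0.58, with TUBB4B at -0.17.

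**Figure D3:**
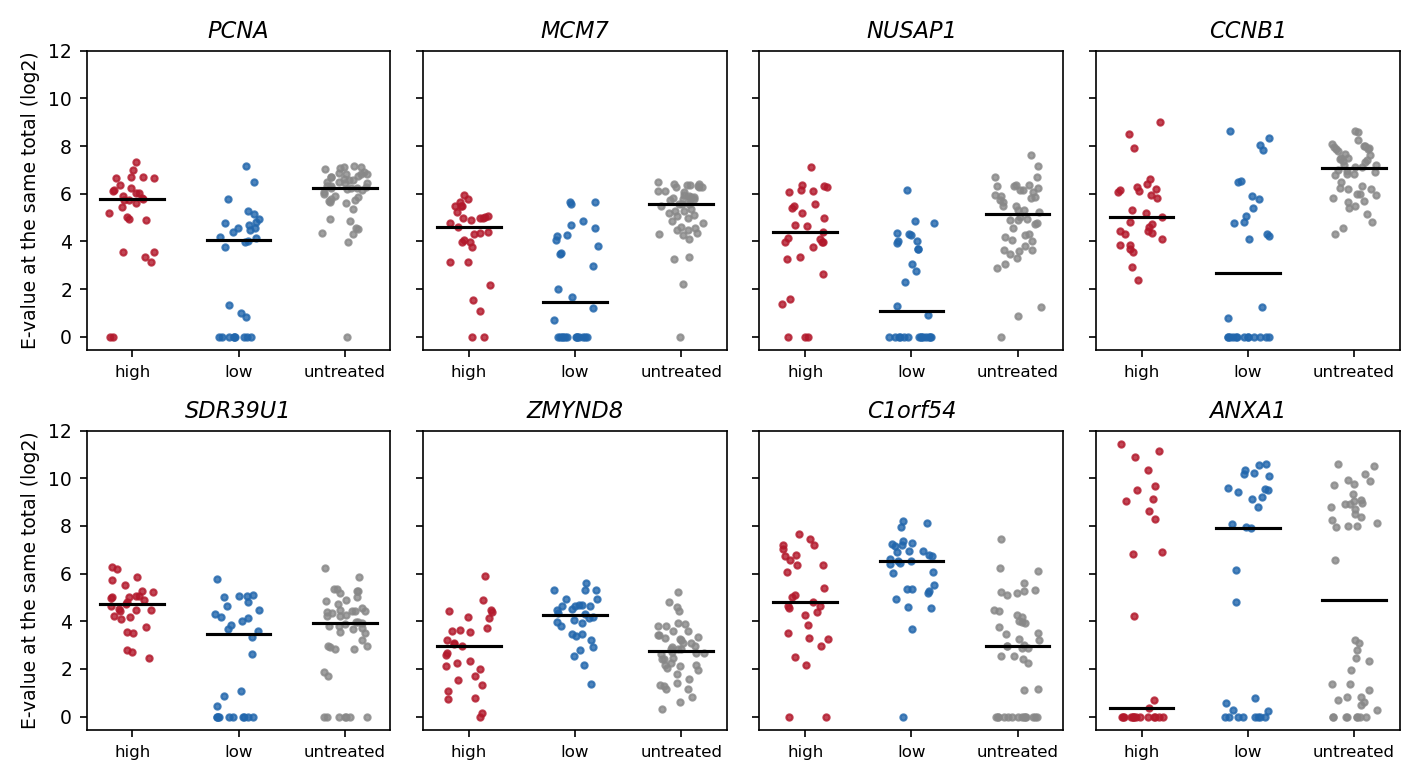
E-value after rescaling to the same total (log2) of 8 genes in each high, low and untreated cell, with the median as a bar. PCNA, MCM7, NUSAP1 and CCNB1 have many low cells at 0, while ZMYND8 and C1orf54 have higher medians in low cells (4.24 and 6.53) than in high cells (2.94 and 4.81).

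Upstream of replication, 6 of the 18 G1 cyclins and CDK inhibitors compared were past the limit and 0 below it (33.3%, against 19.8% over all genes). By linear means 5 were higher and 4 lower, with a median of -0.06, so the one-sided count held on the E-value scale alone. CCNE1, the cyclin of S phase entry, differed by 1.35 and CCND1, the cyclin that couples growth signals to CDK4, by 1.02, while CDK4 differed by 0.39 and CDKN1B, a CDK inhibitor, by -0.10. MYC, a growth regulator, differed by 0.96 by E-values and 0.22 by linear means. CDKN1A, the CDK inhibitor induced by p53, was detected in 11 of 29 high and 5 of 30 low cells and differed by 0.61 by E-values and by -2.76 by linear means. It was compared only because more than 30% of high cells held it. Cell 285, in the low cells, held 8657 rescaled normalized TPM of CDKN1A, against 273.2 in the next cell, and without it the linear value was 1.95. Of 22 p53 targets 2 were past the limit, CDKN1A and CCNG1 (1.21), with a list median of 0.26.

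Of 49 ribosome biogenesis factors 18 (36.7%) were past the limit and 0 below, with a median of 0.51. By linear means 8 were higher and 4 lower, with a median of 0.16. The share by E-values is near that of all genes at their level, since their median mean E-value was 2.80 and 34.6% of genes from 2.36 to 3.01 were higher. POLR1B, a subunit of RNA polymerase I, differed by 1.26, UTP4 by 1.23 and UTP14A, both of the complex that processes the small subunit's RNA, by 1.11, while NPM1 (-0.22), FBL (-0.09) and NCL (0.01) did not pass it. Of the 85 cytosolic ribosomal proteins 1 was past the limit, RPL39L at 0.97, and the list median was -0.01. They made up a median of 11.7% of the total in high, 12.1% in low and 12.2% in untreated cells. At the level of their median mean E-value, 7.98, 4.04% of all genes were higher. The 77 mitochondrial ribosomal proteins had a median of 0.23 with 9 past the limit.

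OXPHOS subunits, which carry mitochondrial respiration, scaled with the total. Of 80 subunits 2 were past the limit and 0 below, with a median of -0.04 and a range of -0.35 to 0.79. Their share of the total had a median of 7.33% in high, 7.54% in low and 7.04% in untreated cells, while their sum in deposited units had a median of 234768 in high, 133852 in low and 106069 normalized TPM in untreated cells. The list's level per cell ran from 6.62 to 7.04 in high and from 6.53 to 7.26 in low cells, so that the range of high cells lay within that of low cells, and it correlated with the log2 total at 0.06 over the 59 cells, at -0.28 within the first and 0.31 within the third block, and at -0.11 without cells 306 and 308. The member with the largest difference was ATP5S (0.79), a coupling factor of ATP synthase. The median mean E-value of the subunits was 7.27. Among all 915 genes from 5.23 to 11.3, 4.04% were higher and the median difference was 0.05.

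Most other lists had medians near that of all genes. Splicing factors had a median of -0.09 with 2 of 33 higher and 2 lower, the largest difference being HNRNPM at -0.996. Of 39 proteasome subunits 5 were higher (median 0.11). Of 13 RNA polymerase II subunits 2 were higher (median 0.04), with POLR2D at 1.75 and the catalytic subunit POLR2A at 0.15. Among genes of translation, 11 of 51 initiation factors (median 0.29, EIF2B1 at 1.3) and 8 of 34 aminoacyl-tRNA synthetases (median 0.30) were higher. Of 23 apoptosis genes 8 were higher (median 0.29), with XIAP, an inhibitor of caspases, at 1.22. Of 40 lysosome genes 9 were higher and 1 lower (median 0.18), with the protease CTSL at 1.32. In metabolism, 4 of 22 cholesterol synthesis genes (median 0.20, ACAT2 at 1.19) and 3 of 21 glycolysis genes (median 0.15) were higher, and SLC2A3, a glucose transporter, was lower at -0.78. Of the 30 genes of the NRF2 and thioredoxin list 4 were higher and 1 lower (median 0.05, TXN2 at 1.00).

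Chaperones and chromatin genes were similar. Of 18 cytosolic heat shock genes 1 was higher (median 0.18, HSPA4 at 0.59), of 27 chaperones of the endoplasmic reticulum 3 (median 0.15, ERO1A at 0.77) and of 8 CCT chaperonin subunits 0 (median 0.23, TCP1 at 0.55). Of 19 histone variants and HMG proteins 3 were higher and 2 lower (median 0.08), with HMGB2, which is also on the G2/M list, at 1.28. The 235 zinc finger ZNF genes had a median of 0.13 with 31 higher, ZNF232 at 1.16 among them, and 7 lower. Of 47 actin cytoskeleton genes 6 were higher (median 0.11, CFL2 at 0.91), and of 21 immediate early genes 3 were higher and 2 lower (median 0.02). Apart from the initiation factors, the synthetases, the apoptosis genes and the lysosome genes, the share of higher genes in each of these lists from splicing factors to immediate early genes lay under the 19.8% found over all genes. In those excepted lists 21.6%, 23.5%, 34.8% and 22.5% were higher, in that order. Of all genes at the levels of their median mean E-values (4.12, 3.56, 2.59 and 3.64), 21.4%, 29.3%, 34.6% and 29.3% were higher. By linear means 5 apoptosis genes were higher and 3 lower.

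**Figure D4:**
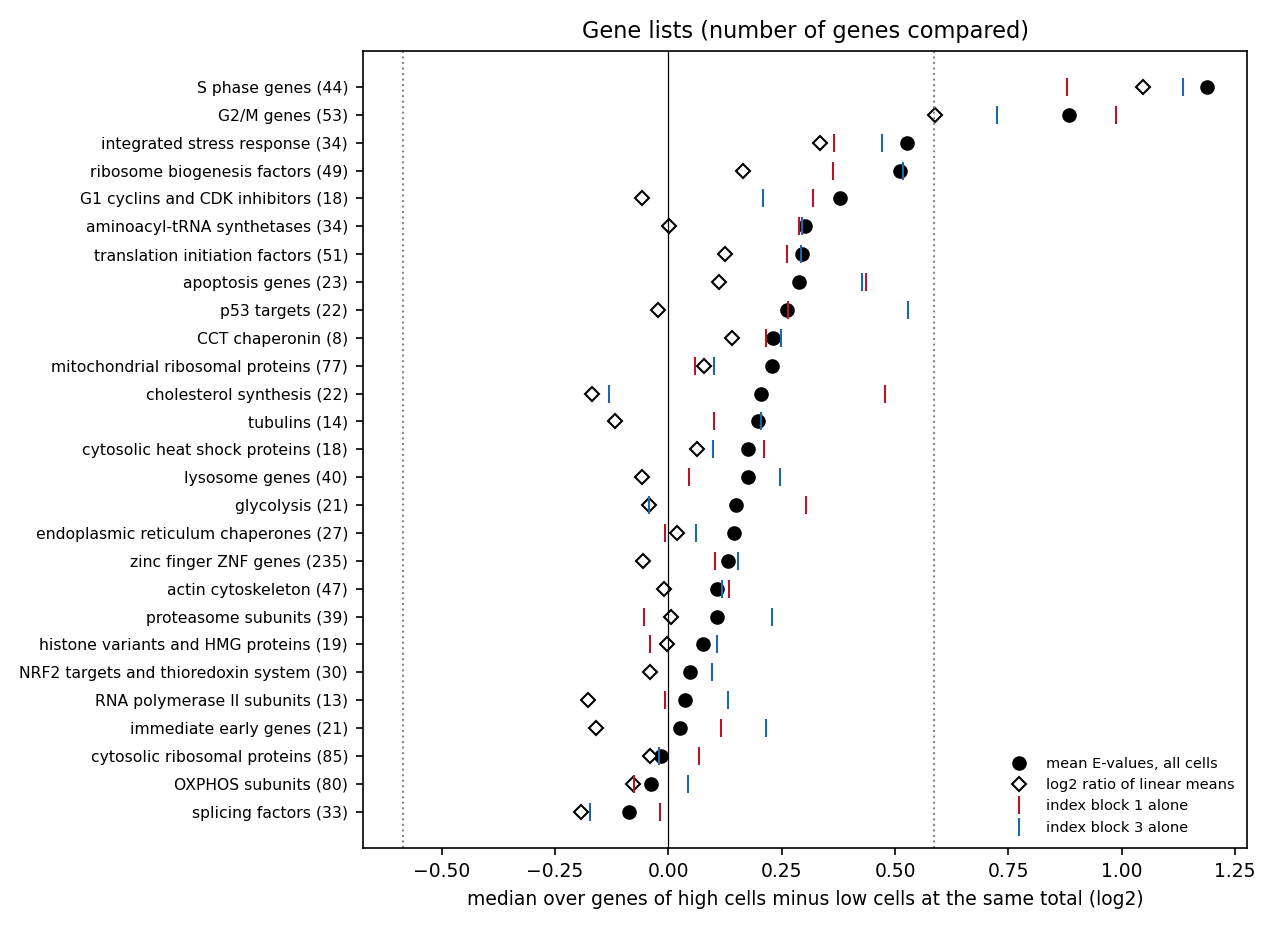
Median over the genes of each list of the high cells minus the low cells at the same total (log2), by mean E-values in all cells (filled circle), by linear means (open diamond) and within each index block (ticks), for lists with 5 or more genes compared; dotted lines mark 1.5-fold. S phase genes lie at 1.19 and 1.05, G2/M genes at 0.88 and 0.59, and OXPHOS subunits and cytosolic ribosomal proteins near 0.

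Tubulins, whose polymer paclitaxel binds, had members past the limit on both sides. Of 14 genes 3 were higher and 2 lower, with a median of 0.20, and the 21.4% that were higher lay near the 19.8% over all genes. By linear means 0 were higher and 2 lower, with a median of -0.12. TUBB differed by 0.43 and TUBA1B by 0.18, while TUBD1, TUBE1 and TUBG1 (0.90, 0.84 and 0.70), which belong to centrioles and spindle poles, were past the limit and TUBB3 and TUBB4A (-0.81 and -0.71) were lower. TUBD1 was at 0.29 by linear means and at -0.27 in the shared detection range. ACTB and GAPDH differed by 0.08 and 0.23.

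The list of the integrated stress response had members past the limit in both directions. Of 34 genes 12 (35.3%) were higher in the high cells and 1 lower, with a median of 0.53. By linear means 8 were higher and 1 lower, with a median of 0.34. The median mean E-value of these genes was 2.56, a level at which 34.6% of all genes were higher and the median difference was 0.36. WARS, a tRNA synthetase, differed by 1.73, SLC3A2, a chain of amino acid transporters, by 1.28, MTHFD2, of mitochondrial folate metabolism, by 0.90 and TRIB3, a pseudokinase induced by the response, by 0.84. PPP1R15A, which reverses the eIF2α phosphorylation that starts the response, was lower by E-values at -0.75 and was named after its values were seen. It was detected in 27.6% of high and 46.7% of low cells, so it was compared only through the low cells. The regulators ATF4 (0.55) and DDIT3 (0.54) and the secreted factor GDF15 (0.45) stayed within the limit. ATF4 differed by 0.77 in the first block and by -0.37 in the third. The list's level had a median of 3.41 in high, 2.90 in low and 2.13 in untreated cells, with ranges of 1.87 to 4.21, 1.15 to 3.76 and 1.07 to 3.00. The chaperones HSPA5 and HSPA8 differed by 0.28 and 0.29.

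Outside the lists, the largest differences that kept their sign in both blocks included SDR39U1 (2.07), ERLIN1 (2.03), ASH2L (1.91), ZMYND19 (1.85) and CENPW (1.85). CENPW is a centromere protein, ASH2L a subunit of histone H3K4 methyltransferases, and ERLIN1 a membrane protein of the endoplasmic reticulum. SDR39U1 was detected in all 29 high cells, from 2.47 to 6.27 with a median of 4.71, and in 20 of 30 low cells, from 0.00 to 5.79 with a median of 3.46. SDR39U1 and ERLIN1 were higher in the high cells than in untreated cells (1.11 and 0.98) and lower in the low cells (-0.96 and -1.05).

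By mean E-value 179 genes were lower in high cells and 1814 higher, while by linear means 1213 were lower and 1412 higher. Among the 10 largest falls by mean E-value were ANXA1 (-1.43), MTFR1L (-1.32), C1orf54 (-1.31), ZMYND8 (-1.28), HMGN5 (-1.28), MYO10 (-1.27), CA11 (-1.21), CSRNP3 (-1.21) and UCHL1 (-1.18). ZMYND8 is a chromatin reader, MYO10 a motor of filopodia and UCHL1 a deubiquitinating enzyme. ZMYND8 (chr20:47209214-47356889) was detected in 28 of 29 high cells, from 0.00 to 5.90 with a median of 2.94, and in all 30 low cells, from 1.38 to 5.60 with a median of 4.24. C1orf54 (chr1:150268200-150280916) ran from 0.00 to 7.65 (median 4.81) in high and from 0.00 to 8.20 (median 6.53) in low cells, and lay above untreated cells in both groups, by 2.11 and 3.42. ANXA1 (chr9:73151865-73170393), a phospholipid-binding protein, was nearly either on or off: E-values above 4 were found in 13 high and 18 low cells and values below 1 in 16 and 12. Its linear means differed by -0.11. The differences within blocks were -3.00 and -0.73.

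Relative to untreated cells at the same total, both groups had medians below 0 in the S phase and G2/M lists, and those of the low cells were further from 0. G1 cyclins and CDK inhibitors had medians of 0.03 in the high and -0.27 in the low cells. In the high cells 1411 genes (15.4%) were more than 1.5-fold higher and 515 (5.63%) lower than in untreated cells, and in the low cells 793 (8.67%) were higher and 1582 (17.3%) lower. The medians over all genes compared were 0.11 in the high and -0.06 in the low cells. Both comparisons share the 46 untreated cells, so their values are given side by side. They are by mean E-values alone. For each gene the high value minus the low value equals the difference between high and low cells given above. The larger distance of the low cells in the S phase and G2/M lists is thus no separate result. Untreated cells above and below their own median total had medians of 6900 and 6325 genes detected, against 6843 in high and 5833 in low cells. The untreated cells carried library indices of block 4, which holds no combination cell. The part of detection and of index block in these differences was not tested. Of the S phase genes 1 was higher and 9 lower in the high cells (median -0.16), and 0 were higher and 39 lower in the low cells (median -1.23). Of the G2/M genes 21 were lower in the high cells (median -0.42) and 46 in the low cells (median -1.28). PCNA differed from untreated cells by -0.75 in the high cells and by -2.97 in the low cells, MCM7 by -1.14 and -3.12, CCNB1 by -1.59 and -3.77, and RRM2 by -1.95 and -3.17. Ribosome biogenesis factors had medians of -0.24 and -0.76. Of the 34 stress response genes 28 were higher and 1 lower in the high cells (median 1.03), and 16 were higher and 2 lower in the low cells (median 0.56), with WARS at 0.91 and -0.82, PPP1R15A at -1.23 and -0.48, DDIT3 at 1.5 and 0.97 and GDF15 at 1.62 and 1.17. OXPHOS subunits had medians of 0.06 and 0.05.

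**Figure D5:**
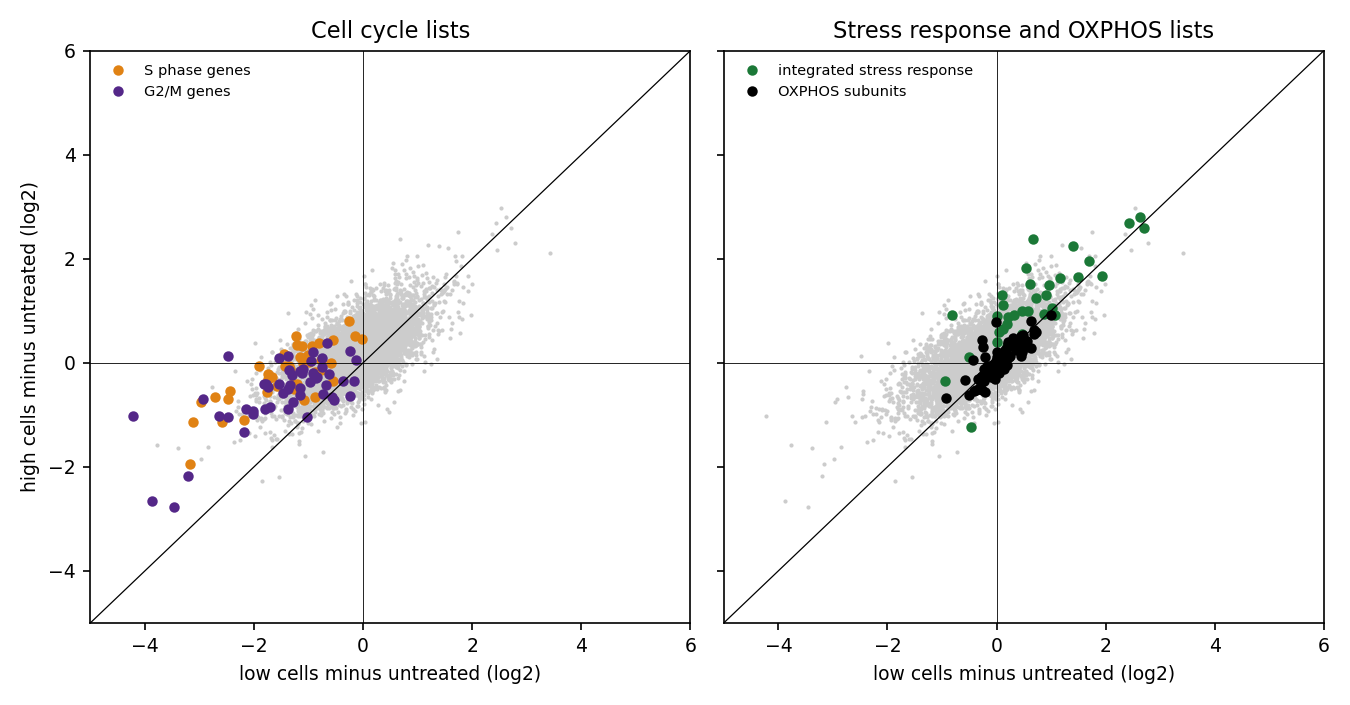
Difference from untreated cells at the same total (log2 E-value scale) in the low cells, x axis, and in the high cells, y axis, 1 point per gene compared, all genes in grey; the diagonal marks equal differences. S phase and G2/M genes lie mostly above the diagonal on the left (medians -1.23 and -1.28 in the low cells), stress response genes have medians of 1.03 in high and 0.56 in low cells with some members below 0, and OXPHOS subunits have medians of 0.06 and 0.05.

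The same split was made in the 5 other conditions, each at its own median and rescaled to its own median total. The median total of the upper cells was 1.48 times that of the lower in untreated cells, 1.89 times with paclitaxel at 16 h and 1.66 times at 48 h, and 1.54 times with celecoxib at 2 h and 1.57 times at 16 h. More than 1.5-fold higher in the upper cells were 11.4% of genes in untreated cells, 9.51% and 9.84% with paclitaxel at 16 and 48 h, and 9.95% and 5.57% with celecoxib at 2 and 16 h. S phase genes had medians of 0.43 in untreated cells, 0.61 and 0.55 with paclitaxel, and 0.62 and 0.63 with celecoxib, with 17 to 25 genes past the limit and 0 below it. The constant of 10 normalized TPM in the E-value weighs more where a total is small. Every cell was therefore also rescaled to the combination's median total, a choice added after the data were seen. The shares of higher genes were then 14.9% in untreated cells, 21.6% and 18.5% with paclitaxel, and 19.4% and 20.2% with celecoxib, against 19.8% in the combination. The S phase medians were then 0.52 in untreated cells, 0.94 and 0.71 with paclitaxel, and 0.92 and 1.09 with celecoxib, against 1.19 in the combination. By linear means, which that constant does not enter, they were 0.33, 0.73, 0.71, 0.64 and 0.85, against 1.05. The direction was the same in all 6 conditions and the largest value was that of the combination, but each condition is 1 sample and the difference between conditions was not tested. The difference in median genes detected between upper and lower cells was also largest in the combination, at 1010. It was 575 in untreated cells, 728 and 725.5 with paclitaxel, and 726.5 and 913.5 with celecoxib. The part of detection in the S phase medians was not tested. For G2/M genes at the combination's total the medians were 0.91 in untreated cells, 0.94 and 0.26 with paclitaxel at 16 and 48 h, and 1.10 and 0.97 with celecoxib at 2 and 16 h, against 0.88. OXPHOS medians lay between -0.06 and 0.00 in the 6 conditions. With each condition rescaled to its own median total, PCNA differed by 0.34 in untreated cells and by 0.91 to 1.67 in the 4 single-drug conditions. On that same rescaling ANXA1 had no common sign, at -1.59 in untreated cells and 1.88 with paclitaxel at 48 h.

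Markers were checked in the combination cells. Of 7 markers of ovarian carcinoma cells KRT18 and VIM were among the genes listed, VIM detected in 20 high and 20 low cells and KRT18 in 12 and 6, and their differences were -0.45 and 0.54. Of 10 markers of leukocytes, fibroblasts and endothelium LYZ, COL1A2 and LUM were listed. LYZ was detected in 12 high and 12 low cells at E-values of up to 0.95. COL1A2 was detected in 7 and 5 cells at values of up to 7.03 in high and 5.60 in low cells, and LUM in 2 and 4 cells at up to 8.24 and 8.88. In untreated cells COL1A2 was detected in 8 and LUM in 5 of 46, at up to 5.83 and 6.75. The part of these markers in the results was not tested. The other markers were not analysed here. The well noted as holding 0 cells gave cell 295, a low cell with a total of 1.17, and without it 1842 genes were higher. Doublets were not called, which needs counts, and 2 cells in 1 well and 1 cell of high RNA content cannot be told apart.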

How the data were processed

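A2780 cells were captured on Fluidigm C1 chips and their full-length cDNA was sequenced by Smart-seq2. What the authors deposited are log2 values (E-values), the log2 of N/10 + 1, where N is the TPM that the authors estimated with RSEM 1.3.0 and Bowtie2 on GENCODE 28 (hg38), after trimming with Trim Galore, and scaled to spike-in RNA. The authors removed cells of low housekeeping expression and genes detected in 30% or less of the cells of every condition. N was recovered from E, each cell was rescaled to the median total of the combination cells, and E was recomputed. Genes found in more than 30% of high or of low cells were compared by the difference of mean E, with a limit of 1.5-fold and no test. A gene could thus enter through either group alone. Steps were tested on combination cells put into random groups, with known changes multiplied in. Multiplying leaves undetected genes undetected, so this simulation could not show the effect of unequal genes detected. Python 3.11 with numpy and pandas was used.

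Named genes were the 10 largest differences in each direction among genes detected in 50% of both the high and the low cells with the same sign in both index blocks, the member of each list with the largest difference under that detection limit, and 15 fixed names. Other genes named in the text were chosen after their values were seen, and 1 gene chosen by this rule is not reported here. The cell groups and gene lists were chosen with earlier results of these data known. The S phase and G2/M lists are those of Seurat. A list of nuclear noncoding RNAs had 0 listed members. Of the alternatives tried, 13 were planned and 2 added after the data were seen. Depth in reads is unknown, which limits genes of low level.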

Additional observations from a re-analysis of the deposited data

How the results depend on the processing

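Under other settings the counts of 1814 higher and 179 lower genes moved with several of them. Without rescaling, on the deposited values, 5779 genes were higher and 13 lower, with a median over all genes of 0.77. With a pseudocount of 1, 4186 were higher and 392 lower, and with genes detected in 90% of the cells of both groups 150 and 27. The number of lower genes also moved to 1213 by linear means, 303 for the 20 highest against the 20 lowest cells, 408 and 592 in index block 1 and index block 3 alone, 369 by medians over cells, and 1693 in cells of the shared detection range, where the ratio of median totals was 1.23 and the difference in genes detected 228. The 20 cells a side replaced 19 after that size had been run. With 19, 2514 genes were higher, and the lower genes again passed 1.5 times their main count. By size factors from the 1036 genes found in every combination cell, without the 50 most abundant genes, without the well noted 0, without cells 306 and 308, and split at each block's median, both counts stayed within 1.5 times.

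S phase genes had a median between 0.63 (genes detected in 90% of both groups) and 1.97 (pseudocount 1), and G2/M genes between 0.17 and 1.76 under the same settings. The values 0.63 and 0.17 cover only the members that passed the 90% filter. In low cells the median detection was 56.7% for S phase and 43.3% for G2/M genes, so many members were left out. Differences past the limit that changed sign were CDKN1A at -2.76 by linear means and -0.28 in the shared detection range, CFL2 at -0.039 and HSPA4 at -0.19 in index block 3 alone, and SLC2A3 at 0.82 and TUBD1 at -0.27 in the shared detection range. The cause was not tested. No paired analysis was possible because the combination is 1 sample and no test was made.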
